A study of Mus musculus with 8 samples.

Results

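The untreated state of B16 cells, a pigmented melanoma line derived from mouse, is described here from the 2 arrays labelled as control, of 8 arrays in the study. The arrays were chosen by their labels, and the genes and lists described were chosen with earlier results of these data known. Both are labelled as non-targeted control at 0 h, and the culture medium shared by the whole study was a high-glucose medium with 5% fetal bovine serum. The other 6 arrays belong to cells given the secreted guidance protein SEMA3E or the actin drug cytochalasin D, and no level on them is reported. The labels call the 2 arrays biological replicates without naming the culture or passage behind each, so the spread given below may be partly technical. Total RNA had been copied into Cy3-labelled cRNA and hybridised in 1 colour to a mouse oligonucleotide array.

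Melanocytes are pigment cells of neural crest origin. They build melanin inside melanosomes, lysosome-related organelles, with the enzymes tyrosinase, Tyrp1 and Dct on fibrils of Pmel, and the transcription factor Mitf controls much of this program. Plexin D1, encoded by Plxnd1, is the receptor that binds SEMA3E, and neuropilins and other membrane proteins act as coreceptors of plexins.

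Levels are log2 of the processed signal minus the array's 75th percentile over probes well above background on both control arrays, so a level of 0 is that percentile and a step of 1 is 2-fold. A gene with several probes took the brightest, and it counted as detected when the scanner file marked that probe as well above background on both arrays. Paired values below are replicate 1 and then replicate 2. Ranks order probe signals. They are no measure of transcript abundance between genes, because probes of one gene differed widely: among 5014 detected genes with at least 2 probes, the brightest and dimmest probe lay a median of 3.60 log2 units apart.

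The labelled cell type was checked against its markers, and all were detected on both arrays. Dct read 4.80 and 5.28, Tyrp1 4.64 and 4.48, Pmel 4.40 and 4.47, and Mitf 4.13 and 3.71. Plxnd1 read 3.73 and 3.81. By mean level these 5 genes held ranks 35, 94, 121, 247 and 301 of the 12498 detected genes. Markers of other cell types were mostly undetected or dim, as given further down.

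The promoters of pigment genes are known for a short element that Mitf binds, and 4 of them are shown because the same 7 letters stand before genes of very different signal. Each run is the 250 bases before the annotated start in RefSeq, build GRCm38.p6, written 5′ to 3′ along the gene's strand. Capitals mark TCATGTG or, on the other strand, CACATGA.

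Tyrp1, chr4:80833963-80834212, plus strand: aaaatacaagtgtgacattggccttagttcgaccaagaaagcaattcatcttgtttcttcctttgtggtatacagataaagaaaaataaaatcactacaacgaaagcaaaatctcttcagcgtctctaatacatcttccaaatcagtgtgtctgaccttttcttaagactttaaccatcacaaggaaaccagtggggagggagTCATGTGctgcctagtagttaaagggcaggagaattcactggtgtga
Dct, chr14:118052247-118052496, minus strand: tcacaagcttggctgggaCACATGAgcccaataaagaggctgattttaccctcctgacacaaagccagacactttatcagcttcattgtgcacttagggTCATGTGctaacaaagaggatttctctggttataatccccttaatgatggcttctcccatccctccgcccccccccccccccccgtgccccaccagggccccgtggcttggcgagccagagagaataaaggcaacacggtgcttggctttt
Tyr, chr7:87493513-87493762, minus strand: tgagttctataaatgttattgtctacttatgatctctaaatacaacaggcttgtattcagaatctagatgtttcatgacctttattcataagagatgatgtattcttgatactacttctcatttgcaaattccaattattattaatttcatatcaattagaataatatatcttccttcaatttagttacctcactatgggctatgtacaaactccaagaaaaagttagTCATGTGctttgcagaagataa
Trpm1, chr7:64153585-64153834, plus strand: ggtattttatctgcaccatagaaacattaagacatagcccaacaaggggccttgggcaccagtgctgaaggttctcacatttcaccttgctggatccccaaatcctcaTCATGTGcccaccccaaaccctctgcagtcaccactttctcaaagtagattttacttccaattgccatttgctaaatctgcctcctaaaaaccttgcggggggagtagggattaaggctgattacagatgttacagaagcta

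The element began 47 bases before the start of Tyrp1, 22 before that of Tyr and 142 before that of Trpm1, and Dct held it at 232 and at 151 bases. The mean levels of these genes ran from 5.04 for Dct and 4.56 for Tyrp1 to 1.26 for Tyr and -2.34 for Trpm1, so windows with the element stood before bright and dim genes alike. Slc24a5, a cation exchanger of the melanosome, and Mc1r, the melanocortin receptor, held it as well, 13 and 52 bases before their starts. Of the 11 melanin and melanosome matrix genes with a promoter in the RefSeq table, 5 had the element, against 3.72% of all 27025 genes with a promoter of the same length searched on both strands, and 3.25% of all 32851 promoters. In the other lineage lists 1 of 22 transport genes, 0 of 12 transcription factors and 1 of 7 receptors had it. Among the 9943 detected genes with a promoter, 2.40% had it. The element was chosen because pigment promoters are known for it, so these counts describe the windows and test nothing. No match was found in the windows of Mitf, Gpnmb, Oca2, Mlph and Rab27a, which says only that these letters are not there.

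Of 22365 genes with a RefSeq symbol and a probe, 12498 were detected, a background share of 55.9%. Another 799 genes passed on 1 array, 404 of them on replicate 1 and 395 on replicate 2, and 9068 on neither. Names with no RefSeq symbol, 12411 in all, were detected in 38.0% of cases and enter none of the lists below. Protein-coding genes were detected in 59.0% of 20168 cases and long non-coding RNAs in 22.4% of 1693. Signals of detected genes spanned -7.61 to 6.33 in mean level, and the median over all genes with a symbol, detected or not, was -5.86. Every one of the 13 mitochondrially encoded genes was detected. The X chromosome had 46.6% of 801 genes detected and the Y chromosome 1 of 25, Uba1y, which was named after its values were seen.

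**Figure D1:**
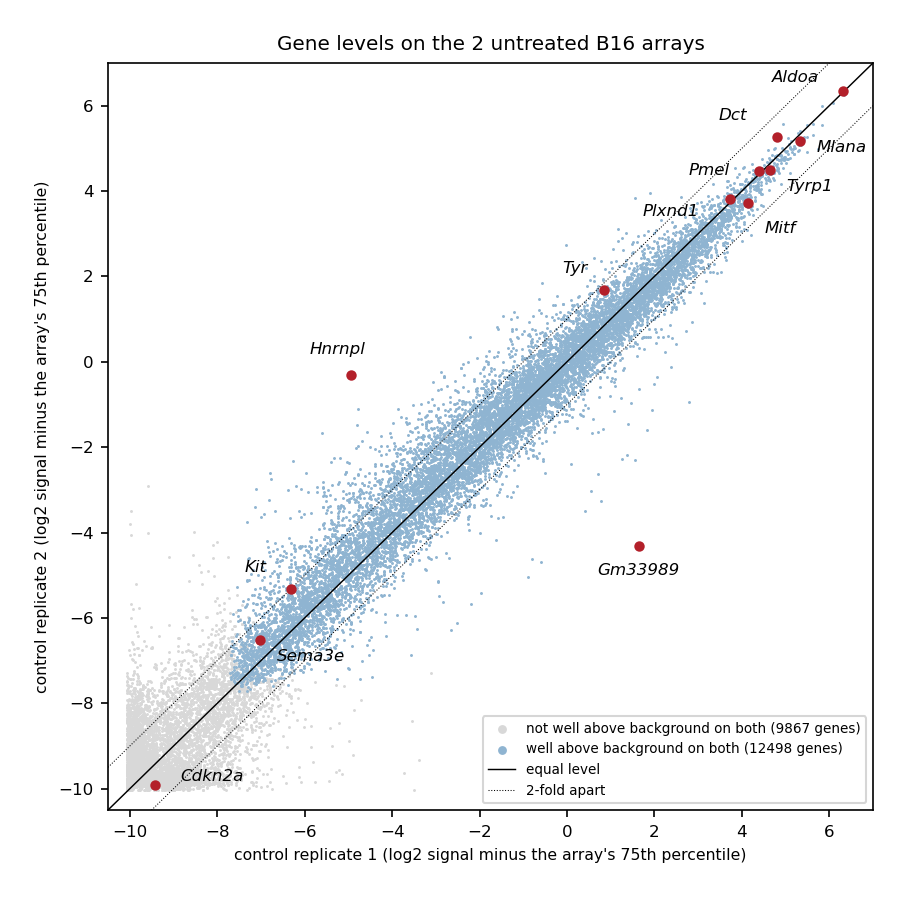
Level of each of 22365 genes on control replicate 1 (horizontal axis) and control replicate 2 (vertical axis), as log2 signal minus the array's 75th percentile; blue points were well above background on both arrays (12498 genes) and grey points were not (9867 genes), and red points are named genes. Pigment genes, Plxnd1 and Aldoa sit at the bright end near the line of equal level, Sema3e and Kit near the detection limit, and Hnrnpl and Gm33989 far from the line.

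The 25 brightest signals came from a mix of genes. Aldoa, the glycolytic aldolase, read 6.30 and 6.35 and ranked first, and Tuba1b, an alpha-tubulin, read 6.33 and 6.25. Cox6a1, a subunit of cytochrome oxidase, held rank 5 at 5.83 and 5.54. The ribosomal protein genes Rpl41, Rps9 and Rps16 had mean levels of 5.60, 5.47 and 5.38. Ubb, a ubiquitin precursor, read 5.49 and 5.55. Hsp90ab1, a cytosolic chaperone, read 5.33 and 5.42, and its kinase cochaperone Cdc37 5.28 and 5.36. Tubb5, a beta-tubulin, read 5.42 and 5.28, and beta-actin, Actb, 5.43 and 5.19. One pigment gene stood among these 25 brightest: Mlana, a melanosome protein used as a melanoma antigen, at rank 18 with 5.33 and 5.16.

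Other members of the top 25 were less familiar. Noct, a circadian gene of the deadenylase family, read 4.94 and 5.58, and Cpe, which trims peptide hormones, 5.12 and 5.18. The remaining ones were Rpl29, Rpl10, Rpl12, Atp5g2, Chchd2, 2610028H24Rik, the long non-coding RNA Gm10845 and the annotated pseudogenes Gm13215, Gm6548 and Gm8580, with mean levels from 5.13 to 5.92. Probes for a pseudogene or a ribosomal protein gene can bind the RNA of near-identical copies, so those names are uncertain. The order agreed between the cultures to this extent: 83 of the 100 brightest genes on replicate 1 were also among the 100 brightest on replicate 2.

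A high rank could rest on a single probe. Arhgef18, a guanine nucleotide exchange factor gene, held rank 3 at 6.09 and 6.06 through one probe, while its other probes read -3.12 and -1.82 and, below background on both arrays, -10.01 and -9.86. The 2 probes of 2610028H24Rik lay at mean levels of 5.36 and -5.64. For Noct the second probe read 0.56 and 0.44, far below the one that gave its rank. Second probes of Gm6548 and Chchd2 had means of 0.90 and -8.35, and the dimmer probes of Gm10845 had means of 0.31 and -0.42. For Dct the 4 probes spanned only 3.80 to 5.04.

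Housekeeping families were detected almost without gaps. All 77 cytosolic ribosomal protein genes with a probe were detected, with a median level of 4.18, against a median of -5.86 over all genes. Rps9 and Rps16 were the brightest of them, and Rpl4 (0.89 and 0.62) and Rps21 (0.38 and -0.37) the dimmest. All 31 proteasome subunit genes were detected, from Psmc1 (4.61 and 4.97) and Psmb5 (4.70 and 4.43) to Psmd11 (0.95 and 0.99) and Psmb2 (-0.28 and -0.25). Glycolysis had 16 of 16 genes detected, with Gapdh at 4.99 and 4.79 next to Aldoa. Aldoc, the aldolase of brain, read -1.88 and -2.26, and the platelet phosphofructokinase gene Pfkp -2.72 and -1.49. Translation elongation and related factors had 7 of 8, with Tpt1 and Eef1d at means of 4.77 and 4.65, and without Eef1a2, the form of muscle and neurons.

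Genes of the mitochondrion, splicing and cell division followed the same pattern. All 78 mitochondrial ribosomal protein genes were detected, and 45 of 46 genes of respiratory complex I, with Ndufa13 at 4.65 and 4.24. Among splicing factors of the hnRNP and SR families, 30 of 31 were detected, led by Hnrnpf at 5.20 and 4.87, and 53 of 56 initiation factor genes were, led by Eif3g at 5.08 and 5.10. The mitosis and replication list had 27 of 27. Its brightest members were Mcm6, part of the replicative helicase, at 4.58 and 4.45, and Rrm2, which makes deoxyribonucleotides, at 4.20 and 4.09. Its dimmest were thymidylate synthase, Tyms, at -4.33 and -4.09, and Aurkb, a mitotic kinase, at -6.24 and -7.28. Aurkb therefore differed by more than 2-fold between the arrays, with its replicate 2 value near the detection limit.

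Of 20 actin and tubulin genes, 15 were detected, and the brightest were the cytoplasmic forms already named. The muscle actin genes Acta1 and Actc1 and the tubulins Tuba8 and Tubb1 were undetected on both arrays, and Acta2, the smooth muscle actin, passed on 1. Actg2, another smooth muscle actin, was detected at -6.84 and -7.02. Members of these families share long stretches of sequence, so single values are uncertain.

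Genes that make melanin and the melanosome matrix were all detected, 15 of 15, and 12 lay above the 75th percentile level of 0. After Mlana, the brightest were Dct, Cd63 and Tyrp1. Cd63, a tetraspanin that sorts Pmel, read 4.82 and 4.53. Gpnmb, a glycoprotein related to Pmel, read 3.10 and 3.66, and Slc45a2, a melanosome transporter, 3.32 and 3.26. Slc24a5 read 1.94 and 1.65. Tyr, the rate-limiting enzyme of melanin synthesis, had a dimmer brightest probe than its relatives Tyrp1 and Dct, at 0.84 and 1.68, or 1.26 ± 0.59 (SD, n = 2). The probes of Tyr had means from -5.61 to 1.26, so this does not rank the transcripts. The copper pump Atp7a read 0.66 and 0.49, the cysteine importer Mfsd12 0.17 and 0.54, and Gpr143, the ocular albinism receptor, 0.51 and -0.16.

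The dim end of the same list held genes of ion transport. Trpm1, a cation channel, read -2.40 and -2.28, and Oca2, a chloride channel that sets melanosome pH, -3.77 and -3.80. Tpcn2, which opposes Oca2 in setting that pH, read -7.19 and -6.90, close to the lowest level marked as well above background, -7.73 and -7.71. By the brightest probe, none of the 15 genes differed by more than 2-fold between the cultures, where 11.7% of all detected genes did. Bright genes differed less often: 2.16% of the 1250 brightest detected genes did, and 12 of the 15 lay above 0. The count therefore does not show that these genes were steadier than others of their level. A dimmer probe each of Trpm1 and Pmel was over 2-fold apart, by -2.34 and 1.30, while those of Dct and Tyr were not.

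Melanosome transport and sorting genes were likewise all detected, 26 of 26, with a median of -0.17. Rab38, the GTPase that directs Tyr and Tyrp1 to melanosomes, was the brightest at 3.75 and 3.63, though its mean over all probes was -3.12, and its relative Rab32 read 0.90 and 0.26. The complex that ties melanosomes to actin had Myo5a, its motor, at 1.95 and 1.80, Mlph, its linker, at 0.68 and 1.03, and Rab27a, its GTPase, at -0.68 and -0.74. Of the adaptor and BLOC complexes, Bloc1s2 read 2.66 and 2.73, Ap3b1 2.59 and 2.69, and Bloc1s3 -4.82 and -4.36. Lyst, the gene of the beige mouse, was the dimmest at -6.84 and -4.35 and the only one over 2-fold apart.

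Lineage transcription factors were detected in 12 of 17 cases, or 70.6%, against 55.9% over all genes. Behind Mitf came Sox10, which activates Mitf, at 2.16 and 2.91, and Sox5 at 2.13 and 1.22. Id2 read 1.81 and 1.33, the Mitf relative Tfe3 1.39 and 1.61, Tfap2a 0.53 and 1.08, and Pax3 0.78 and 0.40. Zeb2 and Snai2, factors of the neural crest, read 0.47 and 0.26, and -1.81 and -1.89. Sox9 and Tfeb were detected at means of -3.34 and -4.44. Lef1, Tfap2b, Sox2, Foxd3 and Irf4 were well above background on neither array.

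Receptors that guide melanocytes were detected in 7 of 9 cases, or 77.8%, against 55.9% over all genes. Mc1r, the receptor for melanocyte-stimulating hormone, read 2.60 and 2.80 with its brightest probe and was the 1 member of 9 above 0. The second probe of Mc1r read -1.54 and -1.36, and the mean over all its probes was 0.62. Igf1r read -2.05 and -1.94, Fgfr1 -2.75 and -2.93, Axl -3.83 and -2.77, and Met -3.89 and -3.60. Kit, the stem cell factor receptor on which normal melanocytes depend, read only -6.32 and -5.32, or -5.82 ± 0.71 (SD, n = 2). Ngfr read -6.41 and -5.70. Erbb3 passed on replicate 2 alone and Ednrb, the endothelin receptor of melanoblasts, on neither.

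**Figure D2:**
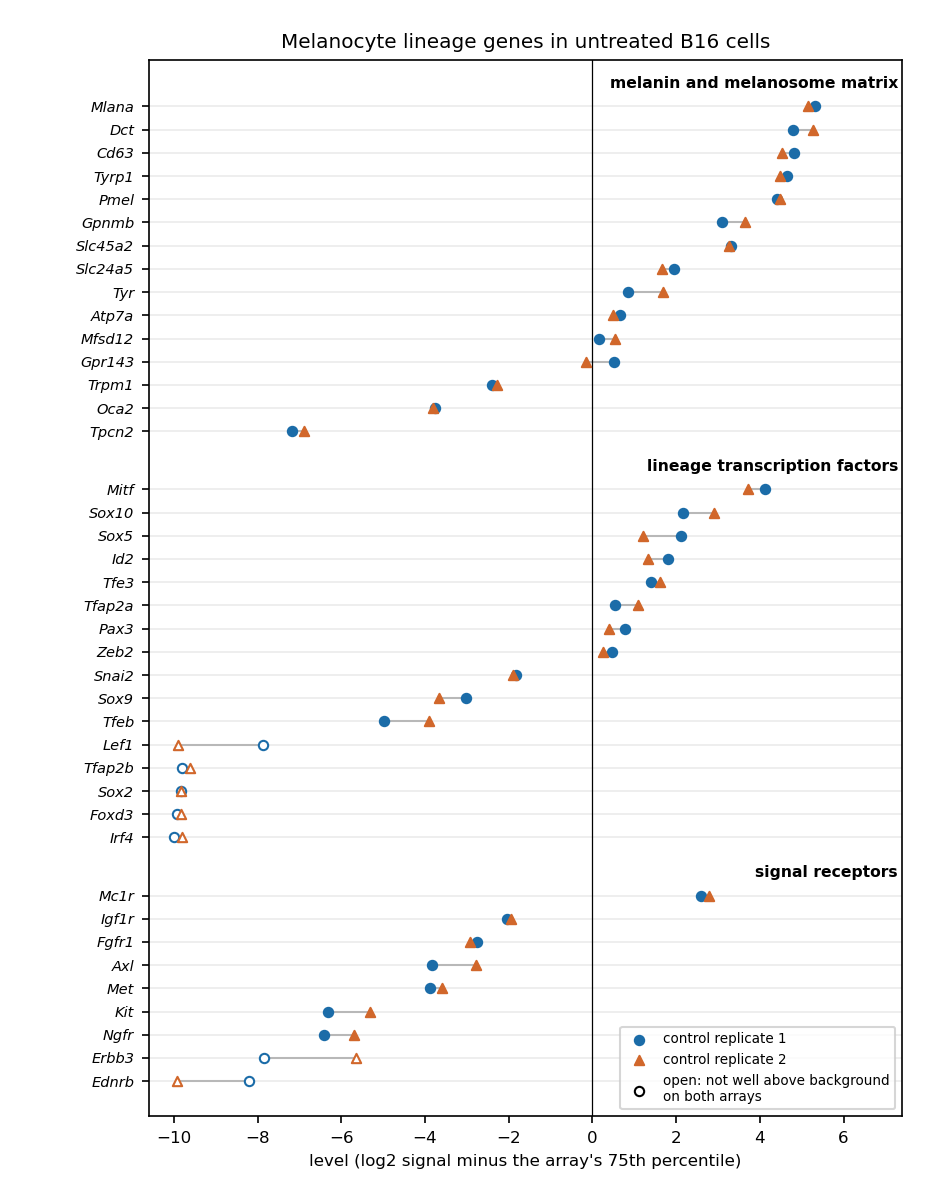
Levels of melanin and melanosome matrix genes, lineage transcription factors and signal receptors on control replicate 1 (circles) and replicate 2 (triangles), as log2 signal minus the array's 75th percentile, with open symbols for genes not well above background on both arrays. Mlana, Dct, Cd63, Tyrp1 and Pmel lie above 4 on both arrays, and Lef1, Tfap2b, Sox2, Foxd3, Irf4, Erbb3 and Ednrb have open symbols.

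The probes of 3 marker genes disagreed, so the first 30 of their 60 bases, as the scanner files give them, are printed for the probes described, numbered by brightness within the gene. No base is capitalised, since no part was singled out.

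Mitf probe 1: cagcaatactttctgtatggtccgcagcac
Mitf probe 3: agcgtgcagtatctgtgaactgatttctcc
Mitf probe 4: cttgattgaacgaagaagaagatttaacat
Plxnd1 probe 1: aggggaaggctgggactctctggaacattc
Plxnd1 probe 2: agggaatttctgcttcagccaccaagcagt
Pmel probe 1: atctctgatactaggcatagacttaagaag
Pmel probe 2: gaggttccctagcacctcttcccaactgaa

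Mitf probe 1 carried the level given above, 4.13 and 3.71. Probe 3 read 0.78 and -1.76. It fell by 2.54 on the log2 scale from replicate 1 to replicate 2. Probe 1 differed by -0.42 and probe 4, at -5.91 and -6.24, by -0.33. Not every probe of Mitf is reported, so these do not show how many probes differed. The files used here do not say which transcript of Mitf each probe reports. Pmel probe 2 read -8.19 and -6.89 and passed as well above background on replicate 2 alone, against 4.40 and 4.47 for probe 1. Plxnd1 probe 2 read -0.57 and 1.13, at a mean of 0.28 against 3.77. The 3 probes of Tyr had means of 1.26, -3.25 and -5.61, and those of Sox10 2.54, 2.38 and -4.06. Tyrp1 and Mlana had 2 bright probes each.

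Plxnd1 was the brightest plexin gene, at 3.77 ± 0.06 (SD, n = 2). Plxnb2, a plexin that binds class 4 semaphorins, came next at 2.31 and 2.79, and the values of the pair did not overlap. The other detected plexins had mean levels from -6.09 to -3.02. Plxnb1 stood at -3.89 and -2.15 and Plxnc1 at -3.09 and -3.07. In class A, Plxna1 stood at -5.38 and -4.03, Plxna2 at -5.17 and -4.27, Plxna3 at -5.40 and -5.48, and Plxna4 at -6.08 and -6.10. The second probe of Plxnc1 had a mean of -6.65, and those of Plxna2 and Plxna4 were undetected on both arrays. Plxnb1 and Plxnc1 overlapped, as did Plxna1 and Plxna2. Plxnb3 was undetected, which made 8 of 9 plexin genes detected, or 88.9%, against 55.9% over all genes. The order of the brightest pair depended on how probes were combined: with the mean of all probes Plxnd1 stood at 2.02 and Plxnb2, which has 1 probe, at 2.55.

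Coreceptors were detected in 4 of 8 cases, near the share of 55.9% over all genes. Nrcam, an immunoglobulin-family adhesion molecule, read 3.35 and 3.67, and the neuropilin Nrp2 2.74 and 2.04 with its brightest probe. The second probe of Nrp2 had a mean of -2.03, and the mean over all its probes was 0.18. Nrp1, the other neuropilin, was well above background on replicate 1 alone, at -7.48 there and -8.29 on replicate 2. Kdr, the VEGF receptor that can join the SEMA3E receptor complex, read -4.43 and -4.00, and the proteoglycan Cspg4 -7.06 and -5.51. The second probe of Kdr was undetected on both arrays, at a mean of -9.71. L1cam, Chl1 and Cntn2 were undetected.

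The semaphorins are the ligands of plexins, and 16 of 20 were detected, or 80.0%, against 55.9% over all genes. Sema4c was brightest at 3.29 and 3.15, then Sema6d at 1.17 and 1.15 and Sema3b at 0.86 and 0.83. With the mean of all probes Sema6d stood at -3.42 and Sema3b at 0.85, so the order of these 2 rests on the choice of probe. Sema4a read -1.30 and -1.78. The ligand under study, Sema3e, lay near the detection limit at -7.01 and -6.52, the dimmest of the detected members, and its rank was 12047 of 12498. Sema3d and Sema5a were well above background on neither array and Sema3a and Sema5b on 1. Sema4b, Sema4f and Sema7a differed by more than 2-fold between the cultures.

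**Figure D3:**
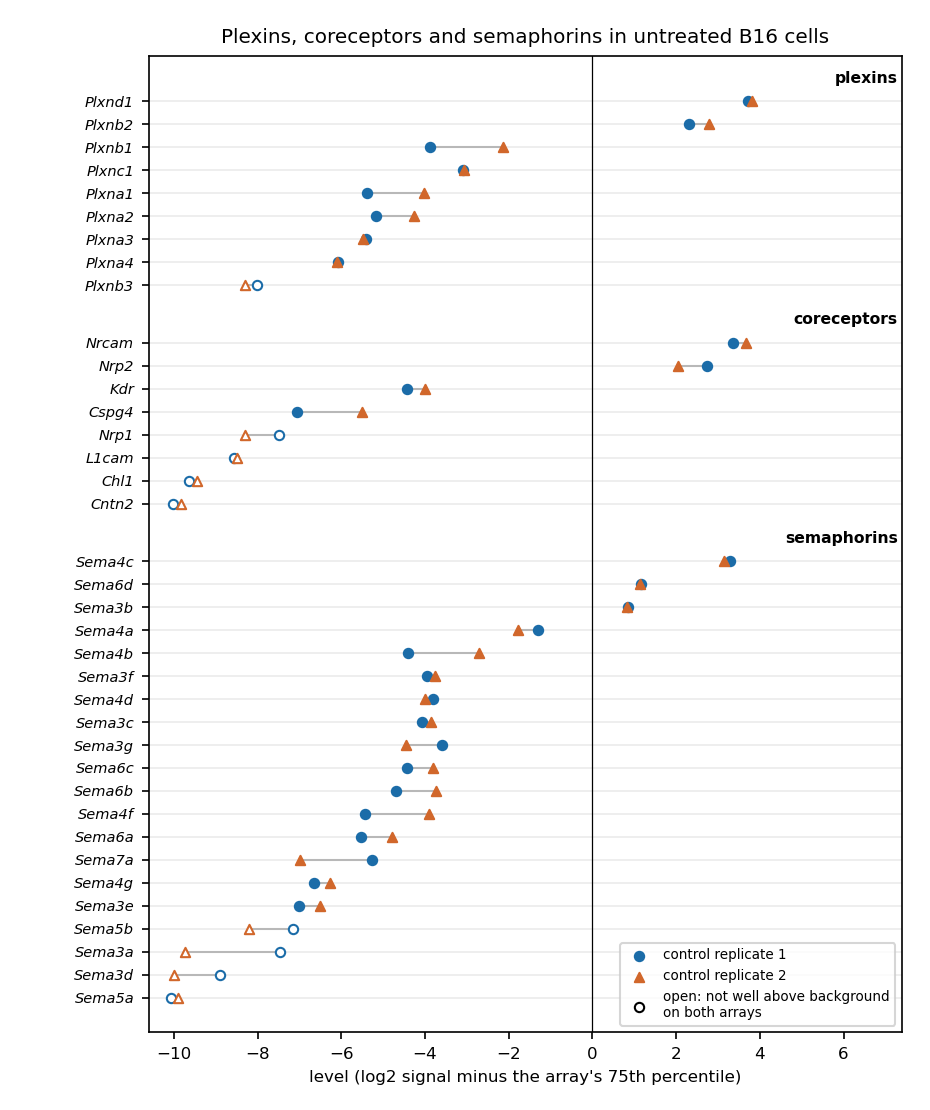
Levels of plexins, coreceptors and semaphorins on control replicate 1 (circles) and replicate 2 (triangles), as log2 signal minus the array's 75th percentile, with open symbols for genes not well above background on both arrays. Plxnd1, Plxnb2, Nrcam, Nrp2, Sema4c, Sema6d and Sema3b lie above 0 on both arrays, and Sema3e is the dimmest filled pair among semaphorins.

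Receptor tyrosine kinases were detected in 28 of 55 cases, or 50.9%, near the share over all genes. The ephrin receptors Ephb3 (3.75 and 3.88) and Epha5 (2.89 and 2.95) were brightest, and Fgfr4 (-7.03 and -6.62) and Pdgfrb (-7.68 and -7.38) the dimmest detected. The mean over all probes of Epha5 was -5.03, so its place rests on the choice of probe. Egfr, Erbb4, Pdgfra and Ret were among those well above background on neither array. Integrins were detected in 17 of 26 cases, or 65.4%, against 55.9% over all genes. Itga6, a laminin receptor subunit, read 2.68 and 1.37 with its brightest probe and -0.25 on the mean of all probes, and Itgb5 0.61 and 0.80. Itga2, Itga2b, Itga3 and Itga11 were undetected, and the leukocyte subunits Itgb7 and Itgb2 were the dimmest detected, at means of -6.37 and -7.01.

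Of 10 classical cadherins 4 were detected, or 40.0%, against 55.9% over all genes. N-cadherin, Cdh2, was the brightest at 3.37 and 2.29, followed by Cdh19, Cdh13 and Cdh6 at means of -3.15, -5.56 and -6.84. E-cadherin, Cdh1, which ties melanocytes to keratinocytes, was undetected on both arrays. Of 9 mesenchymal transition factors Zeb2 and Snai2 alone were detected, or 22.2%. Zeb1, Snai1, Twist1 and Prrx1 were among the 7 well above background on neither array.

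Melanoma driver and suppressor genes were detected in 32 of 35 cases, or 91.4%, against 55.9% over all genes. Akt1 read 3.42 and 3.88 and Rac1 3.42 and 2.93. Mdm4, an inhibitor of p53, and Tert, the telomerase enzyme, were dimmest at means of -4.84 and -6.07. Cdk6 passed on replicate 2 alone. The cell cycle inhibitor genes Cdkn2a and Cdkn2b were on neither array above background, at -9.43 and -9.91, and -9.53 and -9.61, with both probes of each gene undetected. Among their neighbours in the RefSeq order, Mtap on one side read -0.39 and 0.46, and on the other Dmrta1 and Elavl2 were undetected while Zfp352 between them read -2.90 and -2.60. Signals alone do not tell a missing locus from a silent one.

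Antigen presentation genes differed by class. In the class I list 14 of 19 genes with a probe were detected, or 73.7%, against 55.9% over all genes. The brightest were the endoplasmic reticulum chaperones Canx (3.66 and 4.23) and Calr (2.24 and 2.88), which serve all glycoproteins. B2m, the class I light chain, read 0.84 and 0.76, and the heavy chain genes H2-D1 and H2-K1 -1.74 and -1.09, and -1.76 and -2.02. Heavy chain genes resemble each other, so their values are uncertain. Psmb8, an immunoproteasome subunit, was undetected, and Tap1, the peptide transporter, and Psmb9 passed on 1 array. Class II had 2 of 10, H2-DMb1 at -4.28 and -4.77 and Cd74 at -7.48 and -7.49, without the master regulator Ciita.

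Immune ligands and interferon genes were mixed. Among ligands and checkpoint genes 11 of 18 were detected, or 61.1%, near the 55.9% over all genes. Nectin2 (0.77 and 0.73) and Cd47 (-0.63 and -0.32) were brightest and Tnfrsf14 and Icosl dimmest, at -6.83 and -7.21 in mean level. Cd274, which encodes PD-L1, read -4.12 and -4.82 and was named after its values were seen. In the list for nucleic acid sensing and interferon signalling 18 of 22 were detected, or 81.8%. Irf3 read 1.59 and 1.77, Jak1 1.03 and 0.91, Ifih1 -3.23 and -3.14, and Tyk2 -5.59 and -3.13. Irf7 and Tlr7 were well above background on neither array and Tlr3 on 1. Of 33 chemokine genes 7 were detected, and the brightest were Cxcl11 at 2.48 and 2.08 and Cxcl10 at 2.30 and 1.96, both known as interferon-induced. RefSeq lists Cxcl11 of this build as a transcribed pseudogene.

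Marker lists of other cell types were checked in the same way, and 42 of 133 markers with a probe were detected, where 55.9% of all genes were. Of the 40 outside the lineage lists, 4 lay above the level of 0 on the mean of the arrays, among them Egfl7, Tubb3 and S100b. Leukocyte markers had 9 of 22, from Lck at -2.11 and -2.42 and Nkg7 at -2.80 and -2.04 down to Adgre1 at -7.39 and -7.06, with the pan-leukocyte gene Ptprc undetected. Fibroblast markers had 5 of 10, with Fbln1 at -0.83 and 0.48 and Col1a2 at -3.18 and -3.11, and without Col3a1, Lum, Pdgfra and Thy1. Endothelial markers had 4 of 10, with Egfl7 at 1.21 and 0.50 and without Cdh5, Tek and Tie1. Keratinocyte and epithelial markers had 3 of 13, Trp63, Krt14 and Krt5, and Epcam, Krt10, Krt8 and Cdh1 were undetected. Trp63, at -1.99 and -2.23, was well above background on both arrays with 1 of its 4 probes.

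Neuron markers had 5 of 12, with Tubb3, a beta-tubulin of neurons, at 1.22 and 1.17, Syp at -3.99 and -3.54, and Rbfox3 and Nefl undetected. Schwann cell and neural crest markers had 7 of 12, or 58.3%, near the 55.9% over all genes. Besides Sox10, S100b read 2.04 and 1.58 and Mbp -2.81 and -1.98. Schwann cells and melanocytes share a neural crest origin and several of these markers, while Egr2 passed on neither array. In a bulk sample, a small share of another cell type and a low level in every cell cannot be told apart.

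Muscle markers had 2 of 15, Tnnt2 at -3.01 and -3.02 and Des at -6.60 and -5.04. Liver had 2 of 12, Apoa2 at -2.38 and -2.22 and Cyp3a11 at -7.22 and -6.76, with Alb and Apob undetected. Erythroid markers had 4 of 9, the brightest Epor at -5.44 and -5.76 and Hbb-bh1 at -6.20 and -5.85, and male germ cell markers 1 of 10, Tnp1 at -6.70 and -6.08. Xist, the RNA that coats an inactive X chromosome, and the 7 Y-linked genes of that list were all well above background on neither array, which made 0 of 8.

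Large receptor and barrier families had few detected members. Olfactory receptors were detected in 46 of 1076 genes, or 4.28%, and vomeronasal receptors in 23 of 264, or 8.71%, against 55.9% over all genes. Olfr1221, the brightest, read -1.14 and 0.59, a difference of more than 2-fold, and the next, Olfr1229, -2.24 and -2.75. Vmn1r183, Vmn1r178, Vmn1r124 and Vmn1r181 had mean levels from -3.16 to -3.02, and these genes resemble each other in sequence. Beta-defensins had 1 of 43, Defb25 at -5.07 and -5.49, and the killer lectin-like receptors of natural killer cells 0 of 29. Keratins had 9 of 53, led by Krt222 at -2.88 and -2.75, and interleukins 7 of 33, led by Il17d at -1.42 and -1.54.

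Potassium channels were detected in 19 of 97 cases, with Kcna4 at 1.80 and 1.74, and cytochrome P450 genes in 31 of 97, with Cyp2u1 at 3.80 and 3.59. Collagens had 18 of 44, with Col16a1 at 0.07 and 1.14. Hox genes had 24 of 41, or 58.5%, near the 55.9% over all genes, with Hoxa3 at -0.37 and -0.57. Solute carriers had 214 of 381, or 56.2%, also near that share. Their brightest were the mitochondrial ADP/ATP exchanger Slc25a4 (4.62 and 4.48) and Slc10a1, a bile acid transporter of liver, at 4.35 and 4.11. The level of Slc10a1 is that of the brighter of its 2 probes. Rab GTPases had 50 of 59, with Rab38 brightest by its best probe, and zinc finger genes named Zfp 315 of 379, with a median level of -3.61.

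**Figure D4:**
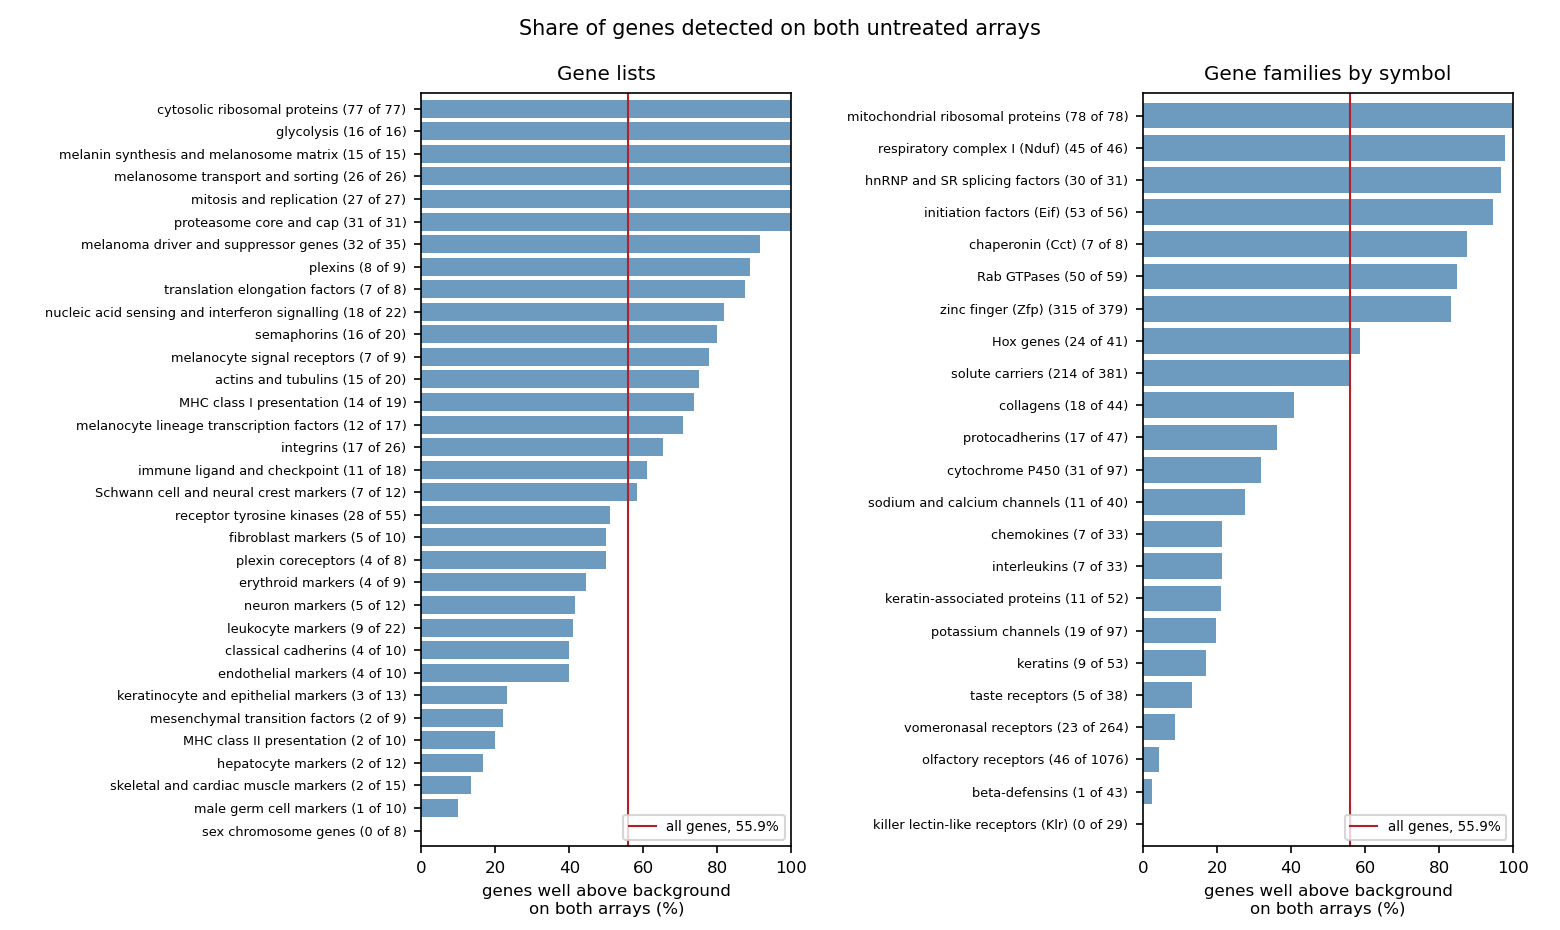
Share of genes (%) well above background on both untreated arrays, for gene lists (left) and for gene families recognised by symbol (right), with counts beside each name and a red line at 55.9%, the share over all genes. Melanin, melanosome transport, ribosomal protein, proteasome, glycolysis and mitosis lists reach 100%, and olfactory receptors, beta-defensins and killer lectin-like receptors lie under 5%.

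Detection went with the number of CpG steps before the start. Among 13459 genes with 1 promoter in the RefSeq table, detected genes had a median of 16 CpG in the 250 bases and undetected genes a median of 3. Of genes with 0 to 2 CpG, 15.8% were detected, and of genes with 21 or more, 83.4%. The detected pigment genes Tyr, Tyrp1 and Dct had 0, 3 and 5 CpG, and Plxnd1 had 16. Genes are not independent replicates, and this is a description over genes.

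The cultures ranked genes alike. Across the 12498 detected genes, Pearson's r was 0.976 and Spearman's rho 0.977, with no p, since genes of the same 2 arrays are not independent. The median absolute difference was 0.36 log2 units, and 90% of genes lay within 1.07. Still, 1464 genes, or 11.7%, differed by more than 2-fold. Of these, 1103 (8.83%) were higher on replicate 2 and 361 (2.89%) lower. With 1 array a side these differences have no replicate check. On these same scanner signals, 3 of the 7 other arrays correlated more closely with control replicate 1 than its own replicate did, and 4 of 7 did so for control replicate 2.

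Genes lower on replicate 2 were led by Gm33989, at 1.65 and -4.30, and Tbx22, a T-box factor of the palate, at -0.89 and -5.03. Then came Cd300lf, a myeloid receptor, at -0.59 and -4.70, Dcaf12l2 at 0.77 and -3.27, and the histone gene H2ac4 at 0.41 and -3.50. Cabp5, St6galnac1, Dennd5b, Gbp6 and Pxmp4 differed by -3.60 to -3.86. For several of them the difference sat on 1 probe. The other probes of Tbx22 and Cd300lf were undetected on both arrays, and the next probe of Dennd5b read -1.61 and -1.44. Pxmp4, a peroxisomal membrane protein, was lower on both of its probes, by -3.60 and -1.64.

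Genes higher on replicate 2 were led by Hnrnpl, a splicing factor, at -4.94 and -0.31, and Ccdc88a, an actin-binding protein also called girdin, at -6.79 and -2.60. Ier5 and Ier2, both immediate early genes, read -7.12 and -2.98, and -7.31 and -3.76. Zfp219, Gpsm1, Fubp1, Sephs2, Tmcc2 and U2af2 rose by 3.58 to 4.03 from replicate 1 to replicate 2. U2af2, which helps choose splice sites, was higher by 3.58, and its other probe was well above background on replicate 2 alone. The second probe of Ier5 differed by 0.07 and that of Fubp1 by -0.47.

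Differences depended on level and on probe composition. When detected genes were split by level into 10 classes of equal size, class 3 from the dim end had 20.5% of genes over 2-fold apart and a median difference of 0.24. The brightest class had 2.16% and a median of -0.15. Probes with at most 30% GC had a median difference of -0.32 (203 genes), and those above 50% and up to 55% GC one of 0.27 (1673 genes). Pearson's r between probe GC and the difference was 0.22 across genes. Median probe GC was 45.0% among genes over 2-fold higher on replicate 2 and 38.3% among genes over 2-fold lower. Ribosomal protein genes, at the bright end, had a median difference of -0.23. The part of level and GC in any single difference was not tested.

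**Figure D5:**
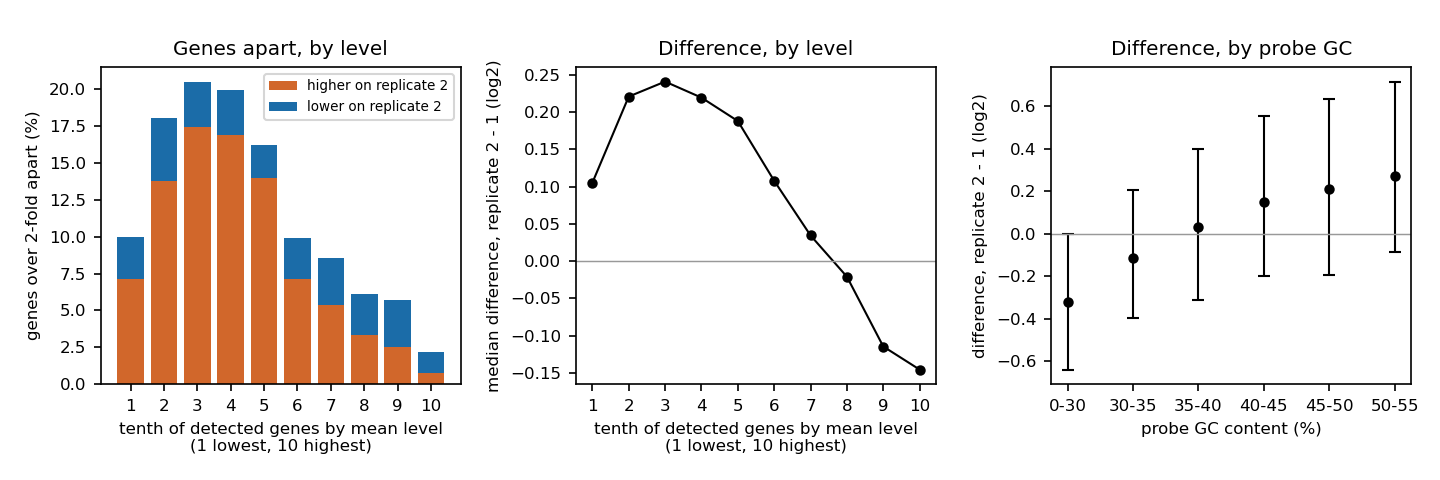
Left, share of detected genes (%) over 2-fold apart between the control arrays, in 10 classes of mean level, split by direction; centre, median difference (log2, replicate 2 minus replicate 1) in the same classes; right, median difference by probe GC content (%), with bars from the lower to the upper quartile, for classes of at least 203 genes. The share apart peaks at 20.5% in class 3, and the median difference rises from -0.32 to 0.27 with GC.

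Probes spotted in duplicate on an array agreed closely, with a median gap of 0.11 log2 units on replicate 1 and 0.13 on replicate 2. Of 436 such probes with a spot over 2-fold apart between the arrays, 289 were past 2-fold in the same direction on both spots. Medians over 32 blocks of the slide ran from -0.04 to 0.16. The 8 detected E1A spike-ins, of 10 on the array, were all lower on replicate 2, by -0.28 to -1.57. The file headers mark the slope of signal on spike-in amount as out of range on both arrays, at 0.785 and 0.849. The array's control probe for the 5′ end of Pgk1 differed from the 3′ probe by -6.84 and -7.07 log2 units, at -2.20 against 4.64 on replicate 1 and -2.33 against 4.75 on replicate 2. For Gapdh the ends were at 4.23 against 4.53 and at 4.64 against 4.48.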

How the data were processed

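The scanner files of the 2 control arrays hold intensity on a linear scale as the authors deposited it. Per the file headers, it was made with Agilent Feature Extraction 11.5.1.1 with background subtracted. The deposited table of intensity per gene name served as an alternative. Of 62976 spots per array, 1439 control spots were left out, and 12 and 6 outlier spots set to missing. Duplicate spots were averaged on log2, which left 55686 probes and 34776 names. Symbols came from RefSeq (GRCm38.p6): of all 55698 probes, including 12 later lost to outlier marks, 27673 matched by accession, 3401 by symbol, 314 by an older symbol and 24310 by none. No spot was saturated, and 45.1% and 44.7% of spots were well above background. The number of arrays limits the precision. No test across genes was possible with 1 array a side, so counts, ranges and mean ± SD (n = 2) are given. The members, lists and tests were chosen with earlier results of these data known. Named genes were the markers, the 25 brightest, list members where a result turns on them, the brightest and dimmest of other lists, the 10 largest differences each way and the Cdkn2a neighbourhood. The count of genes over 2-fold apart was checked on simulated arrays with genes moved by known amounts and less noise than these arrays show. Counts of detected genes were not checked in that way. Scaling, background (normexp, limma 3.58.1 in R 4.3.3), detection mark, probe choice and each array were varied. Python 3.11.15, numpy 2.4.6, pandas 2.3.3 and matplotlib 3.10.9 were used. A few genes and 1 probe are not reported here, though the counts of their lists include them.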

Additional observations from a re-analysis of the deposited data

Results flagged for a closer look

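Names on the array without a RefSeq symbol, which enter none of the gene lists, carried signal: 4718 of 12411, or 38.0%, were well above background on both control arrays, while the 308 negative control spots had a median level of -9.92 and -9.82. Among them were 4607 names of long intergenic RNA loci given by their mm9 position, of which 2002 (43.5%) were detected. Of 1067 such loci with a probe for each strand, 315 were detected on both strands, 478 on 1 and 274 on neither. The brightest was the locus at chr6:116123643-116124550, at 5.08 and 4.85, next to chr17:17481706-17482457, at 5.09 and 4.82. The locus at chr1:193875525-193978800 read 4.57 and 4.87 with the probe of 1 strand and a mean of -8.72 with that of the other strand.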

How the results depend on the processing

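Counts of detected genes and of detected members in each group of lists stayed within 1.5 times of the reported ones in every alternative run, except that markers of other cell types rose from 42 to 70 under the files' looser mark (positive and significant). With the mean of all probes a gene still counted as detected through any 1 of its probes. Those counts could not fall for dim other probes, and no run used a stricter detection mark. From 1 array alone, 12893 to 12902 genes were detected, 60 to 61 lineage, 79 to 80 receptor, 34 to 35 tumour, 47 immune, 173 to 174 abundant and 45 to 46 other cell type genes. Genes over 2-fold apart numbered 849 after normexp and 3218 with no filter on dim genes. At fold limits of 1.5 and 4 they numbered 3734 and 202. With the GC trend removed they numbered 1310. The correlation was 0.964 in the deposited table and 0.987 with no filter. With the mean of all probes 20 of 35 named genes moved by more than the replicate SD, among them Epha5 to -5.03, Rab38 to -3.12, Sema6d to -3.42, Pmel to -1.55, Mitf to -0.73 and Tyr to -2.53. The deposited table, like the mean of all probes, put Plxnb2 (3.16) above Plxnd1 (2.64). The cause was not tested. No paired analysis was possible because a single group is described and no result comes from a test. Levels near -7.7 meet the detection limit.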
